A study of Mus musculus with 2 samples.

Results

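Toll-like receptors (TLRs) are membrane proteins with which cells of the innate immune system recognise microbial products. The genes described here are 8 members of that receptor family, together with Cd14, which encodes a co-receptor that hands lipopolysaccharide and lipopeptides to TLRs, and Myd88, which encodes the adaptor through which most of these receptors signal. The 10 genes (Tlr1, Tlr2, Tlr4, Tlr6, Tlr7, Tlr8, Tlr9, Tlr13, Cd14 and Myd88) were taken by name, found by Ensembl ID among the 55487 gene IDs of the count table, and all 10 were present in it. The libraries were made from colonies of C57BL/6 mouse marrow cells depleted of lineage-positive cells. One culture carried a pMYs-IG retroviral vector for 3xHA-tagged EVI1+18, a product of aberrant EVI1 splicing, and the other the same vector for 3xHA-tagged wild-type EVI1 (EVI1-WT). EVI1 is a zinc finger transcription factor of the Mecom locus. In both cultures, green fluorescent cells were sorted 3 days after infection and 10000 of them were grown in a methylcellulose colony medium for about 3 weeks. The vector overexpresses EVI1 in every cell it enters, so neither culture is without an added EVI1, and the number of mice and of founding clones behind each culture is not given in the sources used here. There was 1 library for each vector. No difference given here has a replicate check, no p-value can be given, and every interval covers counting error alone.

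In mammals, TLR2 pairs with TLR1 or TLR6 at the cell surface and recognises bacterial lipopeptides, and TLR4 recognises lipopolysaccharide with the help of CD14 and MD-2. TLR7, TLR8, TLR9 and TLR13 sit in endosomes and recognise nucleic acids. A ligand brings the receptors' intracellular TIR domains together, which recruits MYD88 and IRAK kinases and leads to activation of NF-kappaB and to transcription of inflammatory cytokine genes. In the marrow, TLRs are found mainly on monocytes, macrophages, dendritic cells, neutrophils and mast cells, and some are also found on stem and progenitor cells.

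The totals were 20981903 counts in EVI1+18 and 20480447 in EVI1-WT. Mecom had 4481 counts in EVI1+18 and 3612 in EVI1-WT, and a count for the whole locus mixes vector and endogenous transcripts. Values below are CPM after TMM scaling (scaled CPM), and a ratio is EVI1+18 over EVI1-WT with a 95% exact counting interval. A gene was called 2-fold higher where the entire interval exceeded 2, and 2-fold lower where it stayed under 0.5. Of 13183 genes that reached 1 scaled CPM in either library, 666 were called higher and 672 lower, and their median log2 ratio was 0.01. Erythroid markers were called higher in EVI1+18 in 12 of 12 genes, and mature neutrophil markers lower in 6 of 11. In bulk RNA, fewer cells of a type and less RNA per cell cannot be told apart.

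In colonies expressing EVI1+18, Tlr2 and Tlr6, whose products form a surface receptor pair, were lower than in colonies expressing EVI1-WT. When libraries were scaled by total counts, the upper bound of Tlr6 was 0.508, and only Tlr2 stayed called. Cd14 and Tlr13 stood at less than 0.5 of their EVI1-WT level, with intervals that reached across the 2-fold line, and with total counts in place of TMM the ratio of Tlr13 was 0.501. Tlr4, Tlr7, Tlr8 and Myd88 had ratios between 0.872 and 1.29. Of the 10 genes, 2 were called lower, beside a background of 5.10% of all genes tested, and 0 were called higher, beside a background of 5.05%. Their median log2 ratio was -0.49, and 7 of the 10 lay below 0. All 10 passed the filter, Tlr9 only through the EVI1-WT library. By the ratio alone, 4 of the 10 stood at least 2-fold lower (8.38% of all genes tested) and 0 at least 2-fold higher (7.87%). The same 4, Tlr2, Tlr6, Tlr13 and Cd14, had intervals wholly beyond 1.5-fold lower (9.79%), and 0 beyond 1.5-fold higher (8.29%).

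**Figure D1:**
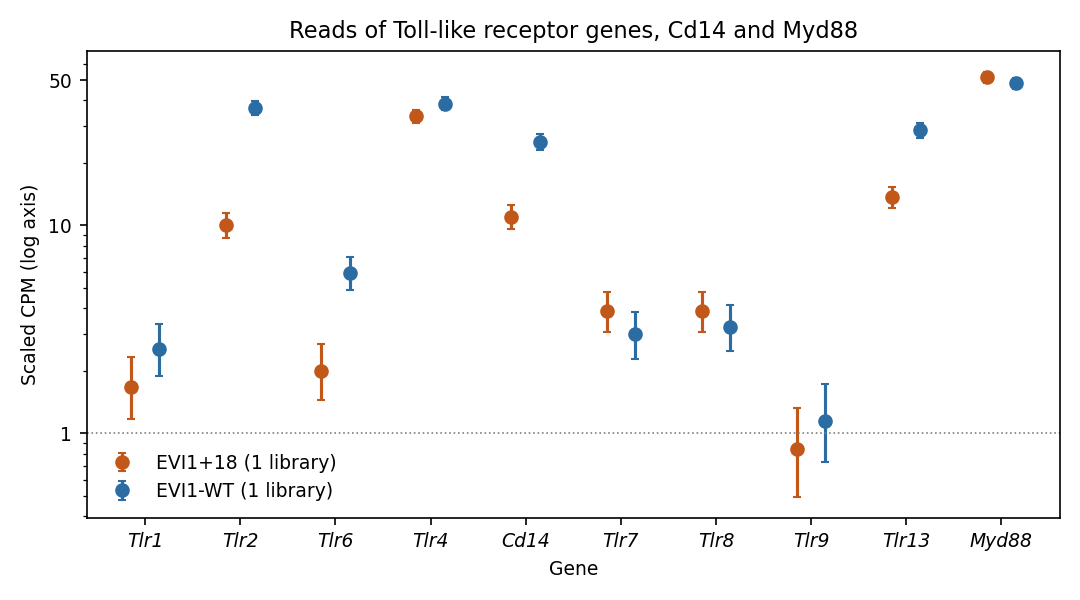
Scaled CPM on a log axis of each gene in the EVI1+18 library (orange, left) and the EVI1-WT library (blue, right), with exact 95% Poisson intervals as bars and a dotted line at the filter of 1 scaled CPM. The largest gap is at Tlr2, with 10.02 scaled CPM in EVI1+18 and 36.7 in EVI1-WT, and Myd88 has nearly the same value in both.

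Tlr2 (ENSMUSG00000027995; GRCm38 chromosome 3, 83836272 to 83841767, minus strand) encodes the subunit shared by the lipopeptide receptors, and its protein is encoded in 1 exon. It had 215 counts in EVI1+18 and 736 in EVI1-WT, or 10.02 scaled CPM in EVI1+18 and 36.7 in EVI1-WT. The EVI1+18 library held the lower value, and the intervals of the levels, 8.73 to 11.5 in EVI1+18 and 34.1 to 39.5 in EVI1-WT, did not overlap. The ratio was 0.273 (0.233 to 0.318), a 3.67-fold lower level (3.15 to 4.29). Of all genes tested, 3.19% had a lower log2 ratio. None of the 50-base words of its transcript (0 of 2965) occurs in a transcript of another annotated gene.

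Tlr6 (ENSMUSG00000051498; chromosome 5, 64952031 to 64960097, minus strand), the partner that lets TLR2 recognise diacylated lipopeptides, had 43 counts in EVI1+18 and 118 in EVI1-WT, or 2.004 scaled CPM in EVI1+18 and 5.89 in EVI1-WT. The ratio was 0.340 (0.234 to 0.486), a 2.94-fold lower level (2.06 to 4.27). Scaled by total counts in place of TMM, the ratio was 0.356 (0.245 to 0.508), and Tlr6 was no longer called. Tlr1 (ENSMUSG00000044827; chromosome 5, 64924679 to 64933563, minus strand), the partner for triacylated lipopeptides, lies beside Tlr6 and is its closest relative in sequence. Tlr1 had 36 counts in EVI1+18 and 51 in EVI1-WT, with a ratio of 0.659 whose interval (0.418 to 1.03) included equality.

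The counts of Tlr1 and Tlr6 are uncertain in part, because 13.6% of the 50-base words of Tlr1 also occur in Tlr6, and 12.3% of those of Tlr6 in Tlr1. The longest run of coding sequence that the pair share has 229 bases, and it is shown because a read inside it fits either gene equally well. It stands at chr5:64953828-64954056 in Tlr6 and at chr5:64925537-64925765 in Tlr1 (GRCm38, minus strand).
Tlr6 and Tlr1, shared coding run: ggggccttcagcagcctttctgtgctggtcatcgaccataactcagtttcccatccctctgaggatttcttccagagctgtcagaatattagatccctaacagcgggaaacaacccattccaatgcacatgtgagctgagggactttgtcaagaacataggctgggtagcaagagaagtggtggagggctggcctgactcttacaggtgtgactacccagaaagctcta
Summed over both genes, there were 79 counts in EVI1+18 and 169 in EVI1-WT, a ratio of 0.436 (0.330 to 0.573). A sum does not depend on how such reads were divided between the genes. Whether they were counted at all is not known, since the counting settings were not given. The sum was 2.29-fold lower (1.74 to 3.03), an interval that crosses the 2-fold line. Per kilobase, Tlr6 stood at 1.07 times Tlr1 in EVI1+18 (0.673 to 1.72) and at 2.08 times Tlr1 in EVI1-WT (1.48 to 2.94), and these intervals overlap.

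Tlr4 (ENSMUSG00000039005; chromosome 4, 66827584 to 66930284, plus strand), the lipopolysaccharide receptor, had 719 counts in EVI1+18 and 770 in EVI1-WT, or 33.5 scaled CPM in EVI1+18 and 38.4 in EVI1-WT. The ratio was 0.872 (0.786 to 0.966), which left out equality by counting error alone. With total counts in place of TMM it was 0.911 (0.822 to 1.01), which did not. Cd14 (ENSMUSG00000051439; chromosome 18, 36725067 to 36726798, minus strand), the lipopolysaccharide co-receptor, had 236 counts in EVI1+18 and 506 in EVI1-WT. At 10.999 scaled CPM in EVI1+18 and 25.3 in EVI1-WT, its ratio was 0.435 (0.371 to 0.509). The upper bound just passed 0.5, so Cd14 was not called. The intervals of Tlr4 and Cd14 did not overlap. Per kilobase of exon, Cd14 stood at 1.05 times Tlr4 in EVI1+18 (0.905 to 1.22) and at 2.11 times Tlr4 in EVI1-WT (1.88 to 2.36), and these within-library ratios do not depend on how the libraries were scaled. They depend on the length used, since by the longest transcript Cd14 stood below Tlr4 in EVI1+18, at 6.70 against 8.22 scaled CPM per kilobase. MD-2, the protein that binds lipopolysaccharide on TLR4, is encoded by Ly96, singled out here after its values were seen. Ly96 had 33 counts in EVI1+18 and 78 in EVI1-WT, a ratio of 0.395 (0.255 to 0.6004), and was not called.

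The endosomal receptors were not alike. Tlr7 (ENSMUSG00000044583; chromosome X, 167304929 to 167330558, minus strand) and Tlr8 (ENSMUSG00000040522; chromosome X, 167242696 to 167264329, minus strand) are neighbours that encode receptors of single-stranded RNA and its breakdown products. Tlr7 had 83 counts in EVI1+18 and 60 in EVI1-WT, a ratio of 1.29 (0.915 to 1.83). Tlr8 had 83 counts in EVI1+18 and 65 in EVI1-WT, a ratio of 1.19 (0.851 to 1.68). Both intervals included equality. Tlr9 (ENSMUSG00000045322; chromosome 9, 106222598 to 106226883, plus strand), the receptor of unmethylated CpG DNA, had 18 counts in EVI1+18 and 23 in EVI1-WT, or 0.839 scaled CPM in EVI1+18 and 1.15 in EVI1-WT. Its interval, 0.371 to 1.41, holds both a 2-fold lower level and an equal one, so a difference was not detectable at this depth.

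Tlr13 (ENSMUSG00000033777; chromosome X, 106143204 to 106160493, plus strand), which in mice recognises a sequence of bacterial 23S ribosomal RNA, had 294 counts in EVI1+18 and 573 in EVI1-WT. The level was 13.7 scaled CPM in EVI1+18 and 28.6 in EVI1-WT, a ratio of 0.479 (0.415 to 0.552). It was 2.09-fold lower (1.81 to 2.41) and just outside the call. All 4 endosomal receptors summed to 478 counts in EVI1+18 and 721 in EVI1-WT, a ratio of 0.619 (0.550 to 0.696). Without Tlr13, left out after its ratio was seen, the sum was 184 counts in EVI1+18 and 148 in EVI1-WT, a ratio of 1.16 (0.9295 to 1.45).

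Tlr7, Tlr8 and Tlr13 are X-linked, and the labels do not give the sex of the donor mice. Xist, which marks cells with an inactive X, had 4 counts in EVI1+18 and 8 in EVI1-WT. Of 4 Y-linked genes, Ddx3y, Kdm5d and Uty had between 498 and 1626 counts in either library, with ratios of 0.796 to 0.982. The fourth, Eif2s3y, had 1 count in EVI1+18 and 2002 in EVI1-WT. By these counts both libraries held Y-linked transcripts and little Xist.

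Myd88 (ENSMUSG00000032508; chromosome 9, 119335934 to 119341411, on the minus strand), the adaptor common to nearly all TLRs and to interleukin 1 receptors, had 1106 counts in EVI1+18 and 964 in EVI1-WT, or 51.5 scaled CPM in EVI1+18 and 48.1 in EVI1-WT. The ratio of 1.07 (0.981 to 1.17) included equality, whereas with total counts it was 1.12 (1.03 to 1.22), and both intervals lay inside the 2-fold lines. Acaa1a, on the opposite strand, shares 11.3% of the exon bases of Myd88 and had 1249 counts in EVI1+18 and 1161 in EVI1-WT. Reads from the shared bases cannot be assigned without a known strand setting.

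**Figure D2:**
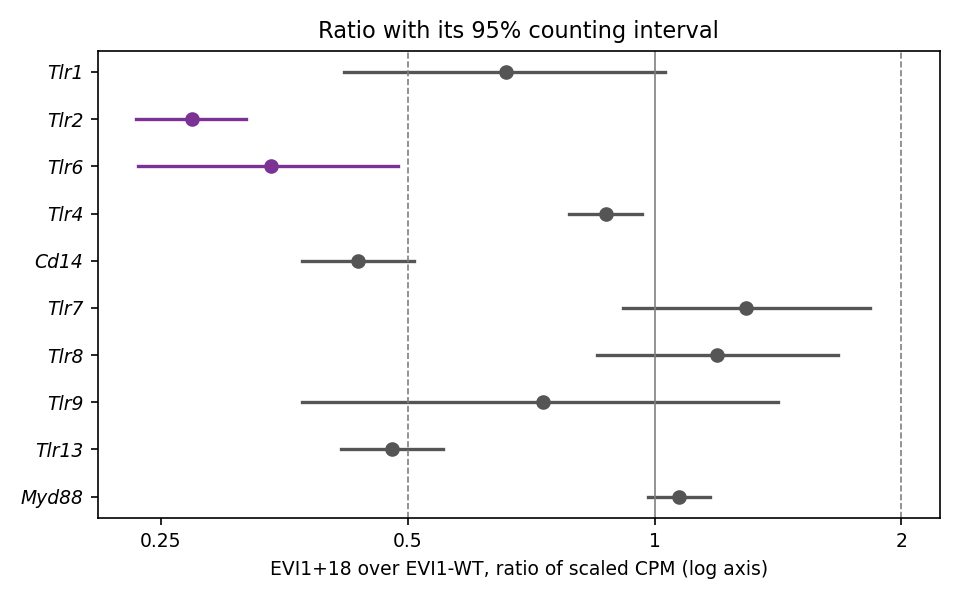
Ratio of scaled CPM, EVI1+18 over EVI1-WT, on a log axis, with the 95% counting interval as a line. A solid vertical line marks equality and dashed lines mark 2-fold. Tlr2 and Tlr6, in purple, lie wholly below 0.5, whereas the intervals of Cd14 and Tlr13 cross that line and those of Tlr7, Tlr8 and Myd88 include 1.

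Levels of different genes were compared per kilobase of annotated exon, in scaled CPM per kilobase. Myd88 was the highest of the 10 in both libraries, at 20.01 in EVI1+18 and 18.7 in EVI1-WT, above 79.2% of the genes tested in EVI1+18 and 77.8% in EVI1-WT. In EVI1+18 the order went on with Cd14 (6.35), Tlr4 (6.03), Tlr2 (3.32), Tlr13 (3.18), Tlr8 (1.08), Tlr7 (0.948), Tlr6 (0.538), Tlr1 (0.501) and Tlr9 (0.241). The ratio of neighbours had an interval that included 1 for Cd14 over Tlr4, Tlr2 over Tlr13, Tlr8 over Tlr7 and Tlr6 over Tlr1. Tlr1 stood at 2.08 times Tlr9 (1.15 to 3.89), which left out 1. In EVI1-WT the order was Cd14 (14.6), Tlr2 (12.2), Tlr4 (6.92), Tlr13 (6.65), Tlr6 (1.58), Tlr8 (0.905), Tlr1 (0.761), Tlr7 (0.734) and Tlr9 (0.330). There, the interval included 1 for Tlr4 over Tlr13, Tlr8 over Tlr1 and Tlr1 over Tlr7. Tlr2 thus stood above Tlr4 in EVI1-WT and below it in EVI1+18, in both cases beyond counting error.

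The 8 TLR genes summed to 15.8 scaled CPM per kilobase in EVI1+18 and 30.1 in EVI1-WT. Tlr4 made up 38.1% of that sum in EVI1+18 and 23.0% in EVI1-WT. Tlr2 made up 20.98% in EVI1+18 and 40.5% in EVI1-WT. The share of Tlr13 was 20.1% in EVI1+18 and 22.1% in EVI1-WT. Tlr7 and Tlr8 held 5.98% and 6.81% in EVI1+18, against 2.44% and 3.01% in EVI1-WT. Tlr2 per kilobase was 0.551 times Tlr4 in EVI1+18 (0.471 to 0.643) and 1.76 times Tlr4 in EVI1-WT (1.59 to 1.95), intervals that do not overlap. Myd88 per kilobase was 6.02 times Tlr2 in EVI1+18 (5.20 to 6.998) and 1.53 times Tlr2 in EVI1-WT (1.39 to 1.69).

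**Figure D3:**
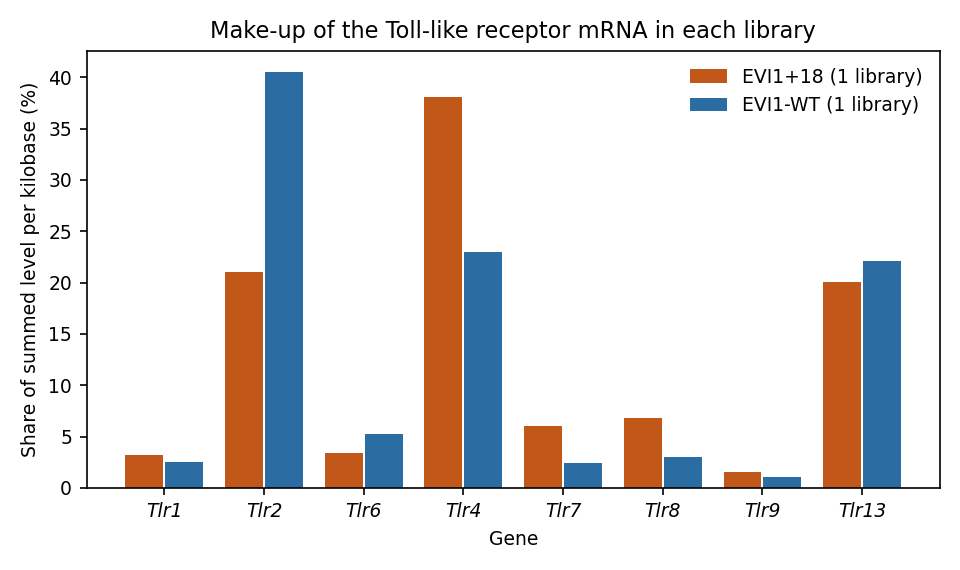
Share in percent of the summed level per kilobase of the 8 TLR genes, for the EVI1+18 library (orange, left bar) and the EVI1-WT library (blue, right bar). Tlr4 is the tallest bar in EVI1+18, at 38.1%, and Tlr2 the tallest in EVI1-WT, at 40.5%. There are no replicates and no error bars.

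Promoter windows are shown for 3 of the 4 genes whose ratios were at least 2-fold lower, Tlr2, Tlr6 and Tlr13, and for Myd88, whose ratio was near 1. They run from 250 bases before to 50 bases after a RefSeq start site, on GRCm38.p6, and 9 windows of 7 of the 10 genes were searched, with 2 windows each for Tlr1 and Tlr6. Windows of Cd14, Tlr4 and Tlr7 were not used here. Capitals mark matches, on either strand, to GGGNNTTNC (NF-kappaB), GAGGAA (the core bound by ETS factors such as PU.1), TTGCNNAA (C/EBP), TGANTCA (AP-1), GAAGATGAG (the second zinc finger domain of EVI1) and GAAANNGAA (interferon-stimulated response), and GATA factor sites were searched as the run AGATAA. The windows are chr3:83841559-83841858 on the minus strand for Tlr2, chr5:64959117-64959416 on the minus strand for Tlr6, chrX:106143025-106143324 on the plus strand for Tlr13 and chr9:119339969-119340268 on the minus strand for Myd88.
Tlr2: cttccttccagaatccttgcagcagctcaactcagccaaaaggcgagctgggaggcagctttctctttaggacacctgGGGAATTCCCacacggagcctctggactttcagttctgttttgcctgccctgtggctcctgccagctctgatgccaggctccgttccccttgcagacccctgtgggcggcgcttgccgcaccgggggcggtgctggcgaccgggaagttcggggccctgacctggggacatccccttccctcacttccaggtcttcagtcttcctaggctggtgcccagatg
Tlr6: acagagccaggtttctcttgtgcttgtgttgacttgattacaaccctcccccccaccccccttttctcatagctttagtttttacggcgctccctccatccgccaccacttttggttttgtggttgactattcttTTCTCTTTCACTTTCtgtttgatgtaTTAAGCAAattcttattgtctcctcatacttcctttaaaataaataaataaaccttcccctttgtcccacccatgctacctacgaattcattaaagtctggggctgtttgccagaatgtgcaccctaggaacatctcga
Tlr13: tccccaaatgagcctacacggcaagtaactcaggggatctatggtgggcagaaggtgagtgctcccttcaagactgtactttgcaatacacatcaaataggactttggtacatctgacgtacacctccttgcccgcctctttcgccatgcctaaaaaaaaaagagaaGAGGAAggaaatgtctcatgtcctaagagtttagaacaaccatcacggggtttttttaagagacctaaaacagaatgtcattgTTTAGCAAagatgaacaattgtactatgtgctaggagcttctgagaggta
Myd88: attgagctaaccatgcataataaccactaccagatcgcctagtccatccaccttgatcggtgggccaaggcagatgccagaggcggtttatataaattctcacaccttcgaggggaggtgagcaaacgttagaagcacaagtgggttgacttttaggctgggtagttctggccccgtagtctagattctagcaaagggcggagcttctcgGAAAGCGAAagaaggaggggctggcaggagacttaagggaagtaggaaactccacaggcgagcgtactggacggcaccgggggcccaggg
Positions are counted from the RefSeq start site of each window, which in the windows shown lies inside the GENCODE gene bounds given above. In the Tlr2 window, the NF-kappaB motif matches on both strands, at positions -172 and -171, which overlap. A match to this motif is in 15.2% of all 32851 promoter windows, and 1 of the 9 windows, that of Tlr2, had one. The Tlr6 window holds 2 overlapping interferon-response matches, at positions -115 and -109, and a C/EBP match at -89, and the other RefSeq window of Tlr6, further upstream and at the start of the GENCODE transcript, holds 0 matches to any of the motifs. In the Tlr13 window there is an ETS match at -83 and a C/EBP match that begins at the start site. The Myd88 window holds 1 interferon-response match, at -40. Of the 9 windows, 4 had an ETS match (28.3% of all windows), 3 a C/EBP match (10.8%), 3 an interferon-response match (8.56%), 1 an AP-1 match (7.81%) and 1 a GATA match (11.2%). The motif of the second zinc finger domain of EVI1 was in 0 of the 9 and in 0.399% of all windows. A match is a run of letters and was not tested as a binding site.

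The rest of the pathway was described through 9 lists. Of their 97 genes that passed the filter, 7 were called higher (7.22%, beside 5.05% of all genes tested) and 10 lower (10.3%, beside 5.10%), and the median log2 ratio was -0.14. Of the 94 that reached the filter in both libraries, 6 were called higher and 9 lower. Of the other TLRs, Tlr12, which in mice encodes a receptor for profilin of protozoan parasites, was the one that passed. It had 5 counts in EVI1+18 and 31 in EVI1-WT and was called 6.64-fold lower (2.56 to 21.9), having passed the filter only through the EVI1-WT library. Tlr3 and Tlr5 had at most 8 counts in either library, and Tlr11 had 0 in both, which allows up to 0.140 scaled CPM in EVI1+18 and 0.150 in EVI1-WT.

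Of 8 co-receptor and ligand genes, 0 were called, and 4 had log2 ratios above 0 and 4 below. Those above were Clec7a, at a ratio of 1.51 (1.41 to 1.61), Hmgb1, at 1.27 (1.24 to 1.30), Cd180, at 1.75 (1.52 to 2.02), and Cd36, at 2.41 (1.70 to 3.47). Among those below, Itgam, the CD11b integrin chain of myeloid cells, had 74.1 scaled CPM in EVI1+18 and 132 in EVI1-WT, a ratio of 0.561 (0.527 to 0.597). The others below were Lrg1, at 0.361 (0.227 to 0.561), Ly96, at 0.395 (0.255 to 0.6004), and Lbp, at 0.634 (0.541 to 0.742). Genes for the folding, trafficking and endosomal processing of TLRs had a median log2 ratio of 0.27, with 9 above 0 and 7 below. Of 16 tested, 5 were called higher (beside 5.05% of all genes tested) and 1 lower (beside 5.10%). The 5 called higher encode lysosomal proteases and a proton pump subunit. The folding and transport genes Unc93b1, Cnpy3, Hsp90b1 and Cnpy4 were not called. Their ratios were 1.31 (1.21 to 1.42), 1.11 (1.03 to 1.20), 0.618 (0.604 to 0.632) and 0.569 (0.511 to 0.633). Cathepsin S, Ctss, a protease that can cleave endosomal TLRs, had 232 scaled CPM in EVI1+18 and 65.2 in EVI1-WT, a 3.56-fold ratio (3.35 to 3.78). Ctsl, Lgmn, Atp6v0d2 and Ctsb, which encode other lysosomal proteases and a proton pump subunit, were 3.79-fold, 3.59-fold, 3.03-fold and 2.10-fold higher. Pld3, an endosomal exonuclease that breaks down nucleic acid ligands of TLRs, was called lower, with 114 scaled CPM in EVI1+18 and 281 in EVI1-WT, a ratio of 0.404 (0.385 to 0.424). Monocyte and macrophage markers, summed, stood at 4498 scaled CPM in EVI1+18 and 2405 in EVI1-WT. Without Lyz2 and Gpnmb, the most abundant of them, the other 18 summed to 887 in EVI1+18 and 1196 in EVI1-WT. The part of these cells in the values of the cathepsins was not tested.

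The counts called in the lists below stand beside 5.05% higher and 5.10% lower over all genes tested. Of 4 TIR-domain adaptors, 1 was called higher, Ticam2, which encodes the adaptor TRAM of the TLR4 route to interferon. It had 127 counts in EVI1+18 and 23 in EVI1-WT, a ratio of 5.15 (3.29 to 8.42). Tirap, the bridge between MYD88 and TLR2 or TLR4, had a ratio of 0.804 (0.708 to 0.912). Of 11 myddosome kinases and ubiquitin ligases and of 14 genes for TAK1, IKK, TBK1 and their partners, 0 were called, with median log2 ratios of 0.02 and -0.001. The kinase Irak1, which MYD88 brings to the receptor, had 127 scaled CPM in EVI1+18 and 125 in EVI1-WT. Of 22 inhibitors, 0 were called higher and 2 lower (9.09%). These were the interleukin 33 receptor Il1rl1, 10.8-fold lower, and Socs1, 3.13-fold lower (2.84 to 3.46). A list of 6 interleukin receptor genes related to MYD88 included Il1r2, a decoy receptor that does not signal. Il1rl1, which also uses MYD88, was counted with the inhibitors instead. Of these 6, Il1r1 was called higher, at 4.41-fold (2.27 to 9.38), with the filter passed only through the EVI1+18 library. The interleukin 18 receptor chain Il18rap was called lower, with 119 scaled CPM in EVI1+18 and 294 in EVI1-WT, a ratio of 0.405 (0.387 to 0.425). Among genes that TLR ligands induce, 15 of 24 passed the filter. Of these, 0 were called higher (beside 5.05% of all genes tested) and 5 lower (beside 5.10%), namely Ccl4, Ccl3, Nlrp3, Il6 and Ptgs2. The median log2 ratio of the 15 was -0.47, with 4 above 0 and 11 below. Those above were Il1a, at a ratio of 2.01, Ccl2, at 1.78, Cxcl3, at 1.56, and Sod2, at 1.07. Ccl4 and Ccl3, chemokines of activated myeloid cells, had 221 and 898 counts in EVI1+18, against 2235 and 6104 in EVI1-WT. Mast cell and basophil markers, summed, stood lower as well, at 819.5 scaled CPM in EVI1+18 and 5379.8 in EVI1-WT. Without Cpa3 and Hdc, the sums were 553 in EVI1+18 and 1792 in EVI1-WT. The part of these cells in the values of these cytokine genes was not tested. The labels describe no TLR ligand in the cultures.

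**Figure D4:**
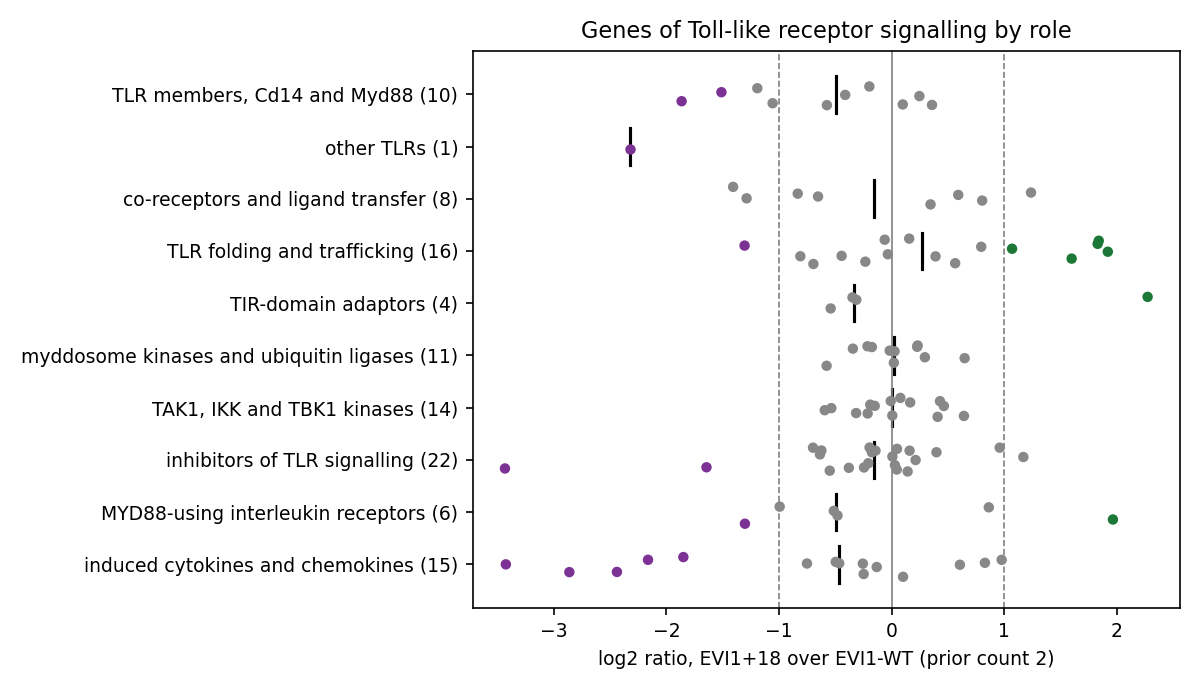
Log2 ratio, EVI1+18 over EVI1-WT, of each tested gene (points) by list, with the number tested in brackets and the list's median as a black bar. Purple points were called 2-fold lower, green points 2-fold higher and grey points neither. The 2 kinase lists hold grey points only, whereas the induced genes hold 5 purple points and the folding and trafficking list 5 green ones.

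Markers of cell types that can carry TLRs also differed between the libraries. Of all genes tested, 5.05% were called higher and 5.10% lower. Among the called markers, Mertk, Clec9a and Cox6a2 passed the filter only through the EVI1+18 library, where they were higher. They had 90, 37 and 213 counts in EVI1+18, against 8, 1 and 2 in EVI1-WT. The same limit holds for any called megakaryocyte marker at 0 in EVI1-WT. Mature neutrophil markers were called lower in 6 of 11 tested and higher in 0, and all 12 summed to 1064 scaled CPM in EVI1+18 and 3019 in EVI1-WT. Mast cell and basophil markers were called lower in 6 of 10 and higher in 2 (Kit and Prss34). The mast cell genes Tpsab1 and Mrgprb2 were at 0 in both. Other genes of that list had counts in both libraries, among them Cpa3 (4201 in EVI1+18 and 48251 in EVI1-WT) and Cma1 (592 in EVI1+18 and 1375 in EVI1-WT). Eosinophil markers were called lower in 5 of 6 and higher in 1, with Ear1 at 0 in EVI1+18. Their sums were 176 in EVI1+18 and 866 in EVI1-WT, or 37.7 and 58.8 without Epx and Prg2. Promyelocyte markers were called lower in 2 of 7. Their sums were 1372 in EVI1+18 and 1667 in EVI1-WT (506 in EVI1+18 and 502 in EVI1-WT without Mpo and Ctsg). Monocyte and macrophage markers were called higher in 7 of 15 and lower in 2 (Ly6c2 and Adgre1), with C1qa at 0 in both and Cd163 and C1qc at 0 in EVI1-WT. Conventional dendritic markers were called higher in 3 of 7, with Cd209a at 0 in both, and plasmacytoid dendritic markers in 2 of 5, with Ly6d and Spib at 0 in EVI1+18 and Siglech and Ccr9 at 0 in EVI1-WT. The sums were 236 and 133 in EVI1+18, against 129 and 146 in EVI1-WT. Without Bst2 and Tcf4, the plasmacytoid sum was 32.2 in EVI1+18 and 10.4 in EVI1-WT. The B cell genes Ms4a1, Pax5 and Ebf1 and the T and NK cell genes Cd4, Cd8a and Ncr1 were at 0 in both libraries, Cd3e was at 0 in EVI1+18, and Cd3g and Klrb1c were at 0 in EVI1-WT. The 8 B cell markers summed to 28.6 in EVI1+18, most of it Ighm, and 6.49 in EVI1-WT. The 9 T and NK markers summed to 25.1 in EVI1+18 and 37.8 in EVI1-WT, nearly all of it Nkg7 and Gzma. Without these, the other 7 summed to 0.419 in EVI1+18 and 0.399 in EVI1-WT. Erythroid markers summed to 13138 in EVI1+18 and 1454 in EVI1-WT, and megakaryocyte markers, 7 of 9 called higher, to 1479 in EVI1+18 and 574 in EVI1-WT, where Gp1bb and Tubb1 were at 0. The part that any of these cell types had in the values of Tlr2, Tlr6, Tlr13, Cd14 or the other TLR genes was not tested.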

How the data were processed

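RNA from 2 cultures, 1 per vector, was sequenced, and the authors deposited raw read counts for each Ensembl ID. The build was GRCm38 and the tools edgeR, Subread, featureCounts, SAMtools and HISAT2 (version 2.2.1), per the submitters' processing notes, whose settings, annotation release and strandedness were not given in the sources used here. Each column was assigned by its name (0 columns unmapped).

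Of 55487 IDs, 55141 matched GENCODE M21. Libraries were scaled with edgeR 4.0.16 (TMM, R 4.3.3). With 1 library per group no quasi-likelihood test was possible. Ratios carry 95% Clopper-Pearson intervals and levels exact Poisson intervals (scipy 1.17.1), which cover counting error only. PCR copies of a molecule are counted more than once, so the intervals can be too narrow even for counting error. Genes needed at least 1 scaled CPM in a library, log2 ratios a prior count of 2, and a count of 0 allows up to 3 counts. The functions were tested on simulated counts. Transcripts were compared by 50-base words.

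The 10 genes and all lists were chosen with earlier results of these data known, so no list median is independent evidence. All 10 genes are named. Of each pathway list the rule took every called gene and up to 3 uncalled genes of highest scaled CPM, and of marker lists the counts, sums, genes at 0 and up to 3 highest genes. To keep to the TLR genes, the text gives every called pathway gene but not all of the uncalled or marker genes that the rule took. A few others were named after their values were seen. The symbol Tasl had no ID in the annotation and was not analysed here. The values of some marker genes are not reported here. Marker sums without the 2 most abundant genes, and pathway counts with the filter met in both libraries, were added after seeing the data.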

Additional observations from a re-analysis of the deposited data

How the results depend on the processing

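No paired analysis was possible because each group has 1 library. Leaving out a replicate was not possible for the same reason. With total counts in place of TMM, 1 of the 10 genes (Tlr2) was called lower, against 2 (Tlr2 and Tlr6) with TMM, DESeq2 size factors or upper-quartile scaling. When the ratio itself had to reach 2-fold, 4 of the 10 were called lower (Tlr2, Tlr6, Tlr13 and Cd14), and over all genes 1037 were called higher and 1105 lower. With intervals beyond 1.5-fold the same 4 were called, with 1093 genes higher and 1290 lower over all genes, and 13 higher and 16 lower in the pathway lists. At least 5 scaled CPM left 431 genes higher. The changed counts under these rules follow from their looser or stricter limits. Total counts moved the log2 ratios of the 10 genes up by 0.06, which took the upper bound of Tlr6 to 0.508 and the ratio of Tlr13 to 0.501, both past 0.5. No setting called any of the 10 genes higher (0 in each). The median log2 ratio of the 10 genes lay between -0.52 and -0.43 over the scalings and prior counts tried. By the longest transcript in place of all exons, the level of Tlr4 per kilobase was 8.22 in EVI1+18 and 9.43 in EVI1-WT, and the ranks of 6 of the 10 genes moved in EVI1+18 and 0 in EVI1-WT. Depth limits Tlr1, Tlr6, Tlr7, Tlr8 and Tlr9, each with at most 118 counts.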
